A study of Homo sapiens with 6 samples.

Results

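The genes described here encode the core machinery of macroautophagy and the receptors that select its cargo. They were 38 listed symbols, from the ULK1 kinase complex to the proteins that let an autophagosome fuse with the lysosome, each matched to its Ensembl gene ID among the 58395 genes of the files. The ATG8 family was left out of the list. All 38 held enough counts to be tested, among 15566 tested genes. RNA was sequenced from HCT116 cells, a human colorectal cancer line, in 3 biological replicates that stably expressed a non-target hairpin (shControl) and 3 that stably expressed a hairpin against STBD1 (shSTBD1). Both hairpins were delivered by lentivirus, the cells of both groups were cultured alike, and 1 hairpin sequence stood for each group. An effect of STBD1 and an effect of either hairpin sequence thus cannot be told apart. STBD1 is a glycogen-binding protein proposed to bring glycogen to the autophagosome, and the comparison asks how the transcripts of the autophagy machinery differed when STBD1 was depleted.

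In macroautophagy a cup-shaped membrane grows around a part of the cytoplasm, closes and delivers its content to the lysosome. The ULK1 kinase complex starts the process, a class III phosphatidylinositol 3-kinase marks the membrane with PI3P, lipid carriers and scramblases enlarge it, and a pair of ubiquitin-like conjugation systems attaches ATG8 proteins to it. Cargo receptors then bind ubiquitin or other marks on the cargo on the one side and ATG8 proteins on the other, and several of them are themselves degraded with the cargo. Transcript levels are not a measure of the flow through the pathway.

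STBD1 itself, on chr4:76306733-76311130 of GRCh38, was measured first. As TMM-scaled counts relative to library size (CPM), the shControl libraries held 16.2, 15.7 and 14.4 and the shSTBD1 libraries 11.6, 9.07 and 9.16, so the groups did not overlap. The log2 fold change of STBD1 was -0.64 with a standard error of 0.098 (adjusted p = 2.9e-04 by the quasi-likelihood test of edgeR, Benjamini-Hochberg-adjusted across the 15566 genes). Limma on log2(TPM + 1) ended this call, with a log2 fold change of -0.54 and an adjusted p of 0.065. The libraries held between 17689097 and 21668274 expected counts, and the common biological coefficient of variation was 3.37%. Of 8 markers of colorectal epithelium, EPCAM, CDH1, KRT8, KRT18, KRT19 and CDX2 were expressed, while VIL1 stayed below 0.32 CPM and CDX1 was at 0 in all 6 libraries. The summed level of these 8 markers was 3347 to 3586 CPM in shControl and 3972 to 4061 CPM in shSTBD1, with CDH1, KRT8, KRT18 and KRT19 higher in shSTBD1, and the part of this shift in the results below was not tested. Leukocyte and endothelial markers summed to at most 2.32 CPM in any library. Of 6 fibroblast markers, COL1A1 was at 30.9 to 40.3 CPM and the other 5 were at or near 0. The 5 neural markers summed to 10.0 to 11.4 CPM.

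Of the 38 genes, 6 were higher and 0 were lower in shSTBD1 at an adjusted p under 0.05. The risers were the kinase ULK1 and its scaffold RB1CC1, the membrane protein VMP1, the ubiquitin-like protein ATG12, and the cargo receptors NBR1 and TAX1BP1. Their log2 fold changes lay between 0.13 and 0.25, which is 9.61% to 18.8% above shControl. At an unadjusted p under 0.05, 9 members were higher and 2, ULK2 and ATG2B, were lower (15.3% and 14.7% of all tested genes). DESeq2 called 5 higher and 0 lower, and the call it did not make was NBR1, while it called 10.9% of all tested genes, 5.60% higher. In the edgeR fit, 15.8% of all tested genes were called in either direction, the same share as among the members. Called higher were 8.22% of all tested genes and 15.8% of the members, and called lower were 7.54% of all tested genes and 0 members. All shSTBD1 libraries lay above all shControl libraries for 9 members (23.7%, against 17.3% of tested genes) and below them for 4 members (10.5%, against 16.3%).

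Most of the changes were small. The fitted log2 fold change was above 0 for 28 members and below 0 for 10, against 50.7% above 0 among all tested genes, and the median was 0.051 against 0.0023. The members were chosen with earlier results of these data known, so this lean and the shares called above are descriptions, not tests. The median absolute log2 fold change was 0.077 for the members and 0.11 for all tested genes. No member reached 0.25 in absolute value, a size reached by 19.5% of tested genes. The sets differ in abundance, with a median of 19.7 TPM in shControl for the members against 11.8 TPM for all tested genes. Genes of like abundance were not compared, so these sizes do not show that the members were unusually stable. Standard errors of the members ran from 0.030 (SQSTM1) to 0.12 (ATG10), so that changes of a few percent could be resolved for the abundant members and not for the scarce ones. At an unadjusted p under 1e-05 by edgeR, 1 member (ATG12) passed, against 371 of all tested genes (2.38%). The methods name this threshold for DESeq2, together with a condition on the TPM fold change, which was not applied here.

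**Figure D1:**
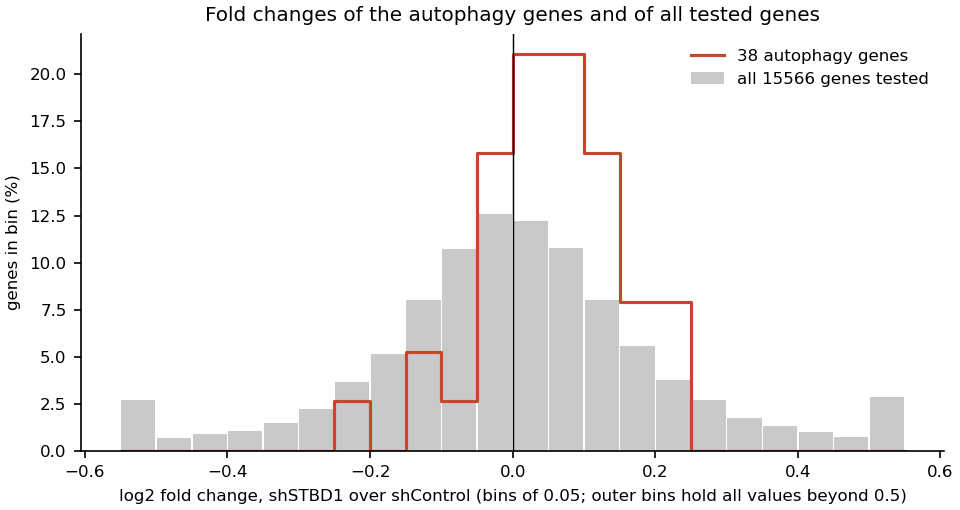
Share of genes (vertical axis, %) in bins of log2 fold change (horizontal axis, shSTBD1 over shControl) for the 15566 tested genes (grey bars) and the 38 autophagy genes (red line). The members lie between -0.25 and 0.25, with 28 of them above 0.

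The promoters are shown for ATG12, the member with the smallest p-value, and for ATG3 and ATG14, whose promoters hold the bases CACGTG. These are the E-box at the centre of the CLEAR element, which TFEB and its relatives bind in genes of lysosomes and autophagy. RefSeq (GRCh38.p14) gave a promoter, 250 bases before to 50 after the start, for 31 of the 38 members. RB1CC1, UVRAG, WDR45B, ATG4D, WDFY3, EPG5 and STX17 had no entry. Each sequence is written 5′ to 3′ on the strand of its gene, all on the minus strand of the chromosome, with CACGTG in capitals.
ATG12 (chr5:115841516-115841815): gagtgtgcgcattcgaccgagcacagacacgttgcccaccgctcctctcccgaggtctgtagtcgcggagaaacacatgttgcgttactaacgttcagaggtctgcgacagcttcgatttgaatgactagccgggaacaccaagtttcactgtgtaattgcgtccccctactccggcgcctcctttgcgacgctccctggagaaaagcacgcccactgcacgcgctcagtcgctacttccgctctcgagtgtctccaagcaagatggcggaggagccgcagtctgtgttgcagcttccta
ATG3 (chr3:112561913-112562212): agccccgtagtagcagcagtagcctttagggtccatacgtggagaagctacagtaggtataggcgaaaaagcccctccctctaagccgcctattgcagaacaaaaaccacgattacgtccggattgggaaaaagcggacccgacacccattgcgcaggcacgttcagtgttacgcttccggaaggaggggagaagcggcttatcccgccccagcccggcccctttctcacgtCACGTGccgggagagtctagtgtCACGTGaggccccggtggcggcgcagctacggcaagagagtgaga
ATG14 (chr14:55411781-55412080): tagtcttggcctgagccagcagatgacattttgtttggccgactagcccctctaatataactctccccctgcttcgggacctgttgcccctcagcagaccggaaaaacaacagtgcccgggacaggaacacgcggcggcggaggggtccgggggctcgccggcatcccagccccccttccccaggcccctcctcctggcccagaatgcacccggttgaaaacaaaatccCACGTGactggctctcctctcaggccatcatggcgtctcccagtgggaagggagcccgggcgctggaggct

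The ATG3 promoter held CACGTG at 18 bases before and again at position 6 after the start, the ATG14 promoter held it 21 bases before the start, and the ATG12 promoter held none. CACGTG, which reads the same on both strands, was found in 2 of the 40 promoters of the members (5.0%) and in 7.26% of 35116 RefSeq promoters of the same length. The whole CLEAR element, a longer motif that contains it, was in 0 of the 40 and in 0.353% of all. Sought on both strands, the FOXO element TGTTTAC was in the promoters of CALCOCO2 and WDR45 (3.42% of all), TGACNNNGC, the antioxidant response element, in those of ATG101 and CALCOCO2 (13.3% of all), and TGATGCAA, a C/EBP-ATF element, in none (0.866% of all). None of these bases stood in the promoters of the 5 called members with an entry. A match is a description of the letters and shows no binding.

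The initiation complex held 2 of the 6 risers. ULK1, the kinase that starts autophagy and is itself controlled by mTORC1 and AMPK, lies on chr12:131894622-131923150. It was at 34.1, 36.7 and 35.4 CPM in shControl and at 40.1, 42.5 and 41.4 CPM in shSTBD1. The lowest shSTBD1 library lay above the highest shControl library. RB1CC1 (FIP200), the large scaffold that holds the complex together and also binds cargo receptors, was at 47.6, 52.2 and 49.0 CPM in shControl and at 60.8, 56.2 and 60.2 CPM in shSTBD1. Again the groups did not overlap, and the narrowest gap was between shControl replicate 2 and shSTBD1 replicate 2. The log2 fold changes were 0.22 for ULK1 (standard error 0.051, adjusted p = 0.0066) and 0.25 for RB1CC1 (standard error 0.049, adjusted p = 0.0023, both by edgeR with Benjamini-Hochberg adjustment). With offsets for RSEM's effective length, which varies between libraries, neither was called, at 0.24 with an adjusted p of 0.28 for ULK1 and 0.20 with an adjusted p of 0.37 for RB1CC1.

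The other subunits were not called. ULK2, the paralog of ULK1, was at 12.3, 14.2 and 15.4 CPM in shControl and at 12.9, 11.5 and 12.0 CPM in shSTBD1, and the groups overlapped through shControl replicate 1. Its log2 fold change was -0.20 (95% interval -0.40 to -0.0085, adjusted p = 0.15 by edgeR). Without shControl replicate 1 it was -0.29 with an adjusted p of 0.030, the single case in which a member was called lower. ATG13, which links the kinases to RB1CC1, and ATG101, which stabilises ATG13, had log2 fold changes of -0.034 and 0.045.

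None of the 6 listed genes of the class III PI3-kinase complex was called by edgeR or DESeq2, and 1, PIK3R4, passed an unadjusted p of 0.05. BECN1, the Beclin 1 scaffold, the lipid kinase PIK3C3 and the pseudokinase PIK3R4 were at log2 fold changes of 0.096, -0.12 and 0.12. PIK3C3 was at 29.4, 30.9 and 30.7 CPM in shControl and at 29.3, 27.4 and 27.3 CPM in shSTBD1. All 3 shSTBD1 libraries thus lay below the shControl libraries, with shSTBD1 replicate 1 next to shControl replicate 1, and the adjusted p was 0.17 by edgeR. ATG14 and UVRAG, which direct the kinase to early autophagosomes and to endosomes, and AMBRA1, a regulator of ULK1 and Beclin 1, were at -0.0098, 0.081 and -0.047. The intervals of BECN1 and PIK3R4, -0.00079 to 0.19 and 0.014 to 0.23, leave room for a rise of the size of the called members.

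VMP1, an endoplasmic reticulum protein that scrambles lipids where autophagosomes form, was the riser among 5 genes of lipid supply. It was at 189.6, 199 and 205 CPM in shControl and at 220.0, 225 and 226 CPM in shSTBD1. The groups did not overlap, and the shControl libraries spread more widely than the shSTBD1 libraries. Its log2 fold change was 0.18 (standard error 0.034, adjusted p = 0.0020 by edgeR), and 0.13 with an adjusted p of 0.18 with offsets for effective length. VMP1 lies on chr17:59707192-59842255, and MIR21, the gene of miR-21, overlaps 72 of its exonic bases on the same strand. TMEM41B, which acts beside VMP1, was at 0.10 (adjusted p = 0.16 by edgeR) and was called without shControl replicate 3, at 0.16 with an adjusted p of 0.041. The lipid transfer proteins ATG2A and ATG2B had log2 fold changes of 0.10 and -0.14, each with groups that did not overlap, and the scramblase ATG9A was at 0.0061.

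The PI3P-binding propellers WIPI1, WIPI2, WDR45 and WDR45B, which read the lipid mark, had log2 fold changes of 0.084, -0.037, 0.040 and 0.011. None was called by edgeR or DESeq2, and none passed an unadjusted p of 0.05. WDR45B was among the 4 most abundant members and had a narrow interval, -0.061 to 0.082, around 0. WIPI2, which recruits ATG16L1, lay with all shSTBD1 libraries below the shControl libraries and had an interval of -0.12 to 0.046.

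ATG12 showed the smallest p-value of the members. It is the ubiquitin-like protein that is joined to ATG5 and lies on chr5:115828200-115841837. It was at 219.8, 241 and 231 CPM in shControl and at 279, 267.5 and 269.9 CPM in shSTBD1. The groups did not overlap, and the gap between them was wider than the range within either. Its log2 fold change was 0.24 (standard error 0.036, adjusted p = 2.5e-04 by edgeR). ATG12 was the 1 member called with offsets for effective length, a setting in which 3.28% of all tested genes were called, 1.84% higher. The other 5 genes of the conjugation systems were not called. ATG7, the E1 enzyme of both systems, was at -0.088, and the E2 enzymes ATG3 and ATG10 were at 0.073 and -0.018. ATG5 and ATG16L1, the partners of ATG12 in the complex that places ATG8 proteins on the membrane, were at 0.067 and 0.053. Of the 3 genes of that complex, 1 was called.

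Of the ATG4 proteases, which trim ATG8 proteins before conjugation and release them afterwards, none of 4 was called by edgeR or DESeq2. ATG4A, the 1 that passed an unadjusted p of 0.05, had the highest log2 fold change of any uncalled member, 0.17 (95% interval 0.0047 to 0.34, adjusted p = 0.15 by edgeR), with all shSTBD1 libraries above all shControl libraries. It was a scarce transcript, with 213 to 310 expected counts in a library. ATG4B, the most abundant of the 4, was at 0.010, ATG4C at 0.10 and ATG4D at 0.025.

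**Figure D2:**
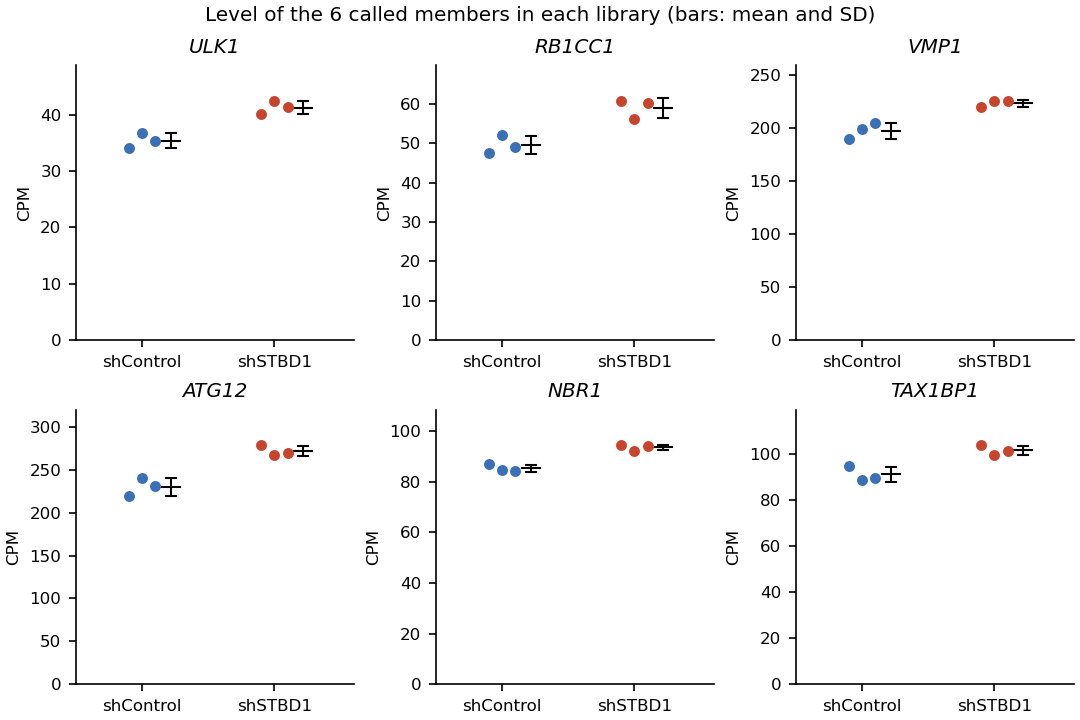
Level of ULK1, RB1CC1, VMP1, ATG12, NBR1 and TAX1BP1 in each library (points, CPM on axes that start at 0), with mean and SD of 3 libraries (bars). In each panel the 3 shSTBD1 libraries (red) lie above the 3 shControl libraries (blue), by 9.61% to 18.8% in the fitted value.

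Of the 6 cargo receptors, 2 were called higher and 0 lower by edgeR (8.22% and 7.54% of all tested genes). NBR1, a receptor of ubiquitinated aggregates and peroxisomes on chr17:43170481-43211689, was at 86.9, 84.8 and 84.4 CPM in shControl and at 94.4, 92.3 and 94.1 CPM in shSTBD1. TAX1BP1, a receptor of aggregates and damaged organelles on chr7:27739331-27844564, was at 94.97, 88.8 and 89.8 CPM in shControl and at 103.8, 99.7 and 101 CPM in shSTBD1. For both genes the groups did not overlap, and shSTBD1 replicate 1 was the highest library. The log2 fold changes were 0.13 for NBR1 (standard error 0.035, adjusted p = 0.017) and 0.16 for TAX1BP1 (standard error 0.038, adjusted p = 0.010, both by edgeR). These were the weakest of the 6 calls. NBR1 was not called by DESeq2 (adjusted p = 0.057), nor by edgeR without shControl replicate 3, shSTBD1 replicate 1 or shSTBD1 replicate 3 (adjusted p = 0.066, 0.074 and 0.071). TAX1BP1 was not called by edgeR without shSTBD1 replicate 1 (adjusted p = 0.060). With offsets for effective length, the adjusted p was 0.26 for NBR1 and 0.24 for TAX1BP1.

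SQSTM1 (p62), the best known receptor of ubiquitinated cargo and a target of NRF2, was the most abundant member. It was at 439.7, 450.5 and 458 CPM in shControl and at 461, 460.2 and 455 CPM in shSTBD1. The groups overlapped, since shSTBD1 replicate 3 fell below shControl replicate 3. Its log2 fold change was 0.030 (95% interval -0.034 to 0.093, adjusted p = 0.55 by edgeR), an interval that ends below the fitted fold changes of the called receptors. OPTN, a receptor in the removal of mitochondria and bacteria, was at 41.6, 36.1 and 37.6 CPM in shControl and at 42.7, 37.98 and 38.8 CPM in shSTBD1, with replicate 1 highest in both groups. CALCOCO2 (NDP52), which brings ubiquitin-coated bacteria and mitochondria to the autophagosome, was at 85.7, 84.9 and 81.7 CPM in shControl and at 88.7, 84.9 and 88.3 CPM in shSTBD1. The groups of OPTN and CALCOCO2 overlapped, and their log2 fold changes were 0.050 and 0.052. Their 95% intervals were -0.079 to 0.18 and -0.027 to 0.13, and that of OPTN holds the fitted fold changes of both NBR1 and TAX1BP1. WDFY3 (ALFY), a scaffold for the clearance of aggregates, was at -0.028 with an interval of -0.11 to 0.054. The difference between the called and the uncalled receptors was not tested. EPG5, a tether between autophagosome and lysosome, and STX17, the autophagosomal SNARE, were at 0.13 and 0.022, and neither was called by edgeR or DESeq2 or passed an unadjusted p of 0.05.

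**Figure D3:**
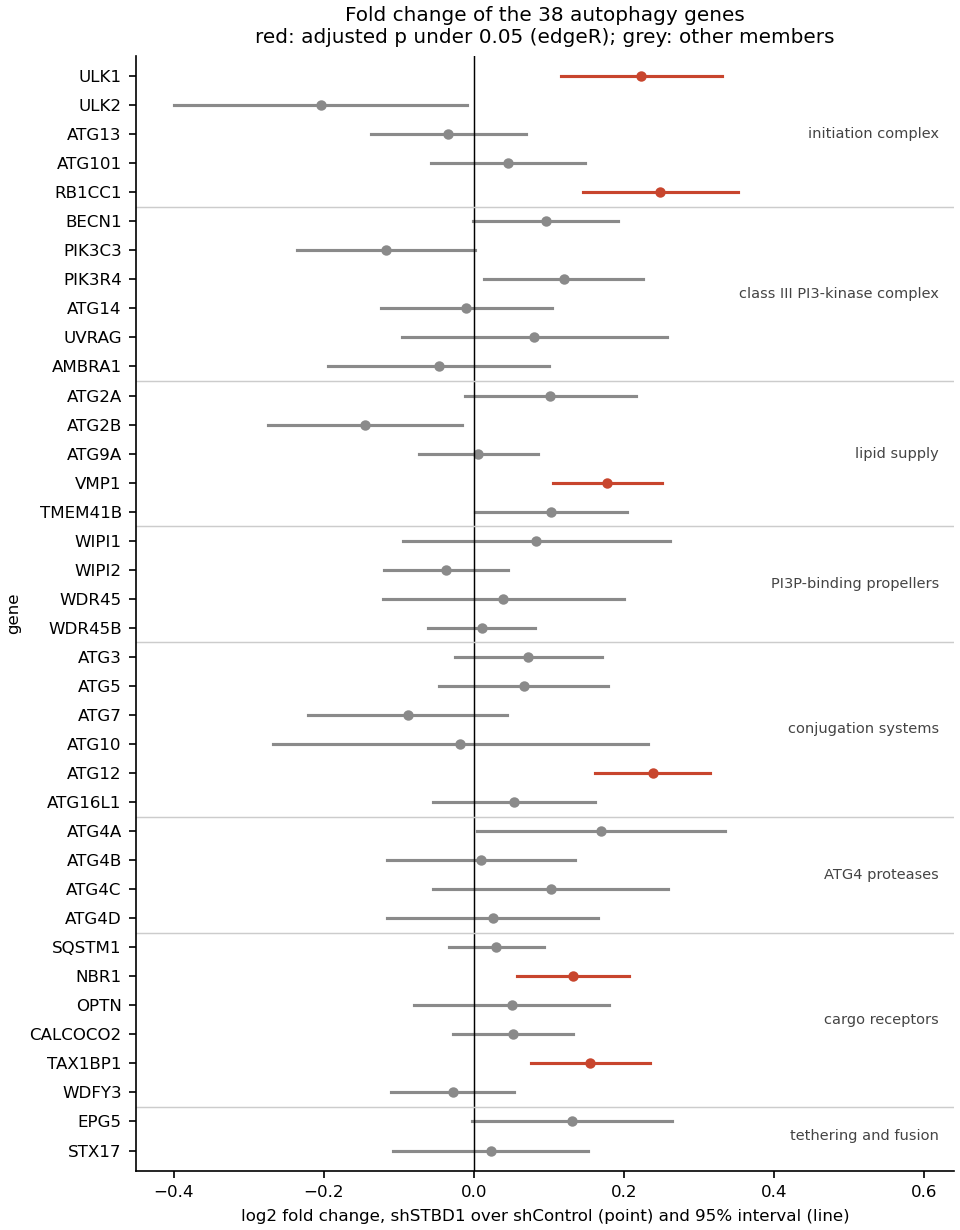
Log2 fold change (points) and 95% interval (lines) of each of the 38 members, ordered by role, with members called by edgeR at an adjusted p under 0.05 in red and the others in grey. The 6 red members lie between 0.13 and 0.25, and ULK2 is the lowest at -0.20.

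The levels of the 38 genes, compared per length in TPM, spanned 85.4-fold in shControl. SQSTM1 led with 262 ± 30.5 TPM (SD, n = 3), followed by ATG12 with 168 ± 12.5, VMP1 with 106.5 ± 3.5 and WDR45B with 104 ± 6.6. VMP1 and WDR45B did not differ beyond their spread. At the other end, ATG2B was at 3.07 ± 0.16, ULK2 at 3.65 ± 0.28 and EPG5 at 4.16 ± 0.21 TPM. In all, 9 members lay below 10 TPM, and the median member was at 19.7 TPM against 11.8 TPM over all tested genes. The called members lay between RB1CC1 at 11.1 TPM and ATG12, and neither SQSTM1 nor any of the 9 members below 10 TPM was called.

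**Figure D4:**
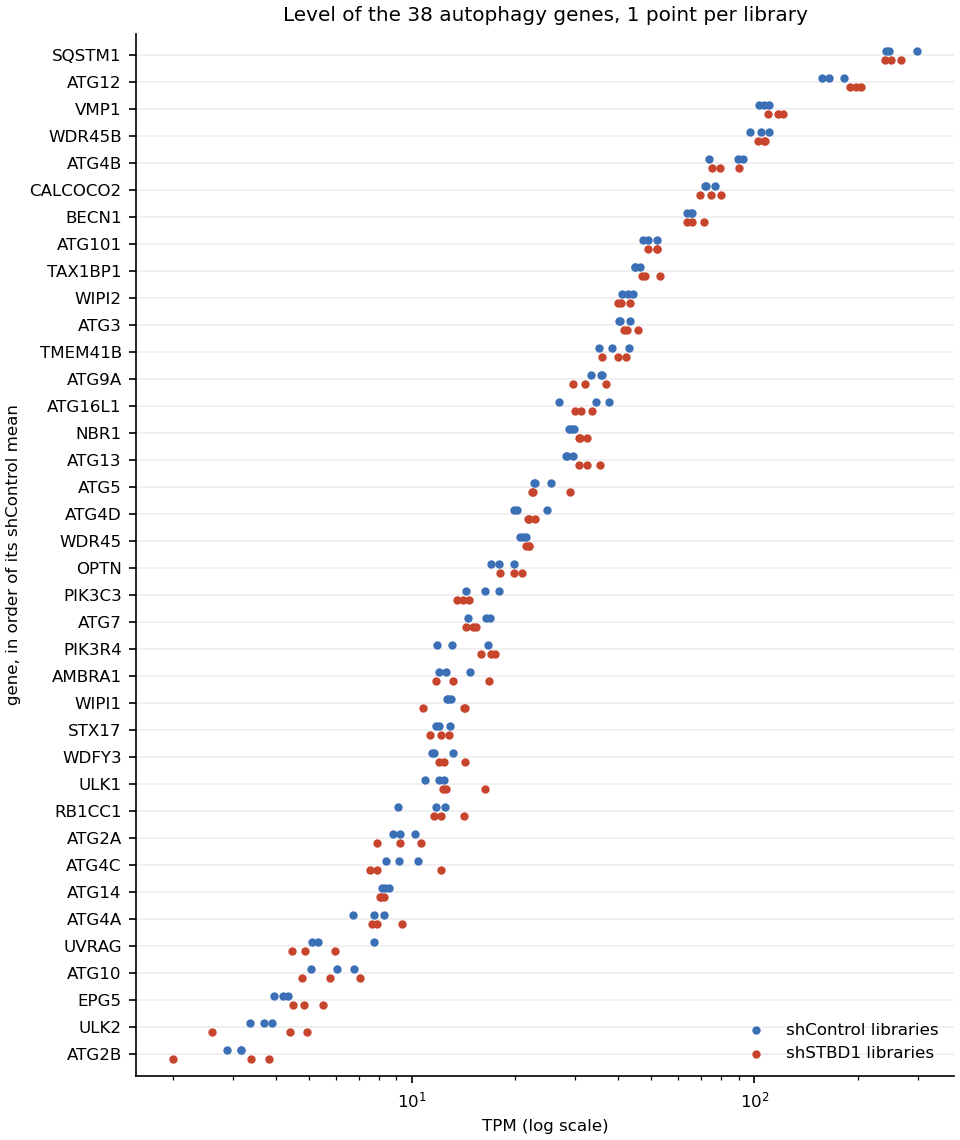
TPM (horizontal axis, log scale) of each of the 38 members in the 3 shControl (blue) and 3 shSTBD1 (red) libraries, ordered by the shControl mean. SQSTM1 and ATG12 lie above 150 TPM in every library, and ULK2 and ATG2B lie below 5 TPM.

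Paralogs were compared as TPM ratios within a library, which do not depend on how libraries are scaled. In shControl, ULK1 was 3.22 times ULK2, ATG2A was 3.06 times ATG2B, ATG4A was 0.0890 times ATG4B, ATG4C was 0.431 times ATG4D, WIPI1 was 0.2997 times WIPI2 and WDR45 was 0.203 times WDR45B. In shSTBD1 the 6 ratios were 3.55, 3.10, 0.102, 0.405, 0.313 and 0.207. The differences in log2 ratio ran from -0.090 (ATG4C over ATG4D) to 0.19 (ATG4A over ATG4B). No pair differed by the two-sided exact permutation test over 6 libraries (p from 0.40 to 1.0, adjusted over 6 pairs from 0.84 to 1.0). The smallest possible p of this test is 0.1, so no pair could have passed 0.05. In counts the log2 fold changes were 0.22 for ULK1 and -0.20 for ULK2, and 0.10 for ATG2A and -0.14 for ATG2B. Paralog ratios of counts were not tested. The SD of the log2 ratio of ULK1 to ULK2 was 0.019 in shControl and 0.40 in shSTBD1, and that of ATG2A to ATG2B was 0.074 and 0.67, so these ratios were not resolved in shSTBD1.

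That spread came with the estimated effective length, the transcript length that RSEM divides by to obtain TPM, which depends on the isoform mixture it infers. For ATG2B it was 8003, 8854 and 8439 bases in shControl and 5954, 11461 and 6852 bases in shSTBD1, a ratio of 1.93 between the highest and lowest library. For ULK2 that ratio was 1.81 and for UVRAG 1.84, while the median member had 1.18 and the median tested gene 1.12. For ATG13 the estimated length was 2223, 2281 and 2364 bases in shControl and 1832, 1980 and 1938 bases in shSTBD1, the 1 member of 38 whose groups did not overlap in length (2.63%, against 9.55% of tested genes). The counts of ATG13 overlapped between the groups, from 53.2 to 60.8 CPM, while its TPM was 28.3, 28.2 and 29.5 in shControl and 35.4, 32.5 and 30.8 in shSTBD1. ULK2 was lower in shSTBD1 in counts and higher in mean TPM, 3.65 ± 0.28 against 3.98 ± 1.22 (SD, n = 3). ATG12, NBR1 and TAX1BP1 were different: their lengths varied by ratios of 1.06, 1.06 and 1.07 between libraries. The counts and the TPM of each both separated the groups. For the called ULK1, RB1CC1 and VMP1, the counts separated the groups and the TPM overlapped.

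**Figure D5:**
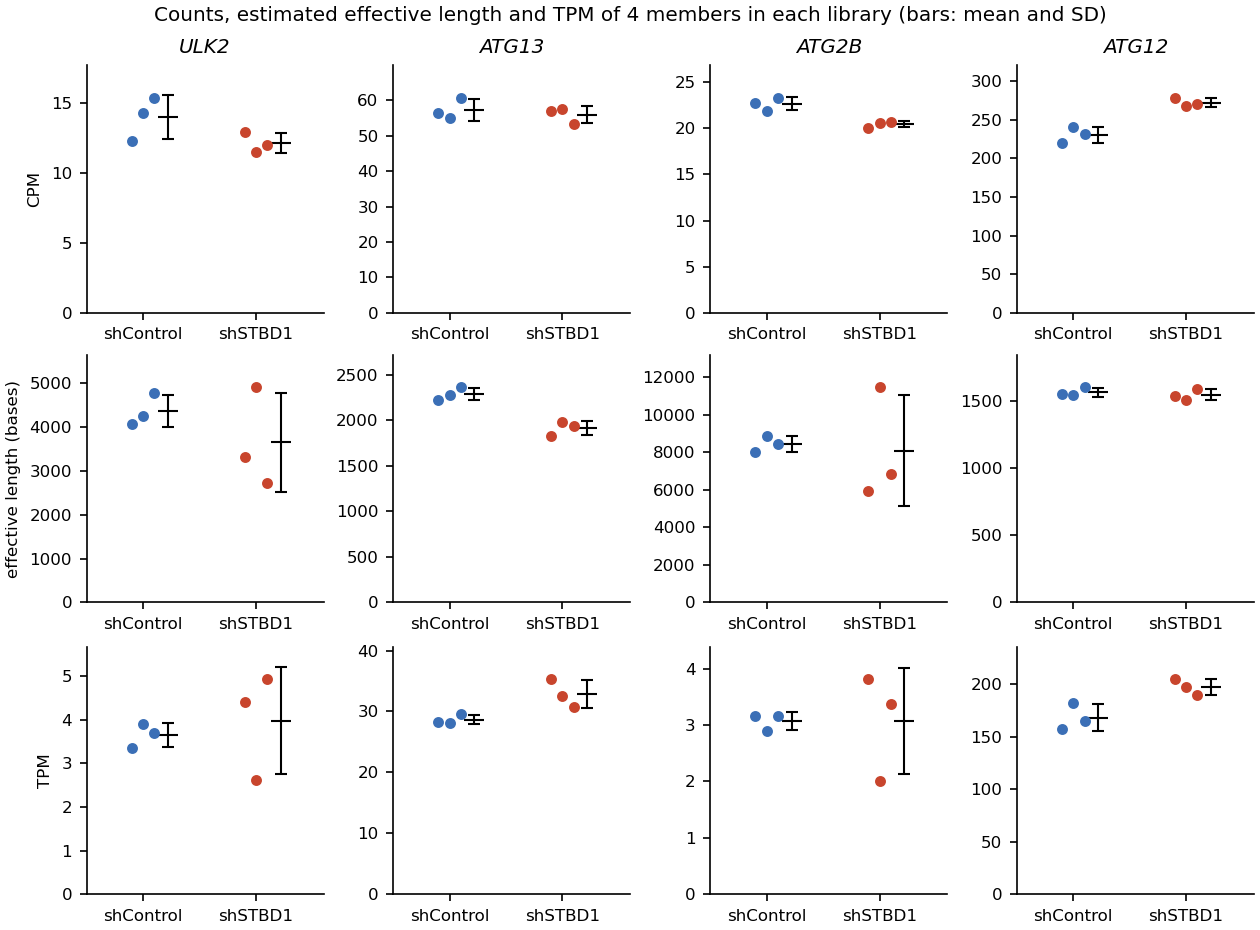
CPM (top row), RSEM's effective length in bases (middle row) and TPM (bottom row) of ULK2, ATG13, ATG2B and ATG12 in each library (points), with mean and SD of 3 libraries (bars). The lengths of ULK2 and ATG2B spread widely among the shSTBD1 libraries, those of ATG13 are shorter in shSTBD1, and those of ATG12 hardly vary.

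The non-target hairpin of shControl carries 7 bases, GTGTCAC, that also occur in 3′ UTRs, and 1280 of 13059 tested genes with a 3′ UTR held them. Of these carriers 18.5% were called higher in shSTBD1, against 8.45% of the other genes, and 8.36% were called lower, against 8.53%. The median 3′ UTR was 3225 bases in carriers and 1159 bases in the others. The neighbouring 7 bases of the hairpin, TGTCACG, were held by 396 genes and by 0 members. Of these genes 10.9% were called higher, against 9.39% of the others, and 10.9% were called lower, against 8.44%. Their median 3′ UTR was 2872 bases, against 1270 bases in the others. The part of 3′ UTR length or of the shControl hairpin in these shares was not tested. Sites of the STBD1 hairpin were not sought. Among the 38 members, ATG2B carried GTGTCAC and was not called, and 0 of the 6 called members carried it. In ATG2B the site began at base 2919 of a 3′ UTR of 6560 bases, shown here with its neighbours and the site in capitals.
ATG2B: gctcctgttgtGTGTCACttttcaagccg

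Genes that act with the 38 were described from 5 further lists. Of all tested genes, edgeR called 8.22% higher and 7.54% lower, and DESeq2 called 10.9%, 5.60% higher. Of the ATG8 family, the proteins that the conjugation systems attach to the membrane, 5 of 7 were tested and 3 were called higher. GABARAP was at 57.2, 62.8 and 58.5 CPM in shControl and at 96.6, 95.4 and 92.6 CPM in shSTBD1, with 0.67 as its log2 fold change (standard error 0.042, adjusted p = 2.7e-08 by edgeR). No member of the core list changed by as much. MAP1LC3B and GABARAPL1 were called at 0.17 and 0.21. DESeq2 did not call GABARAPL1 (adjusted p = 0.056), and in edgeR it lost its call without shControl replicate 1 or 3 or shSTBD1 replicate 1 or 3, with an edgeR adjusted p of 0.083, 0.065, 0.062 and 0.17. Among 13 genes of fusion with the lysosome, 0 were higher and 3 were lower, VPS41, VPS33A and VPS18, all subunits of the HOPS tether, with log2 fold changes of -0.18, -0.19 and -0.17 (adjusted p = 0.0074, 0.028 and 0.043 by edgeR). At an unadjusted p under 0.05, 1 of the 13 was higher and 5 were lower (15.3% and 14.7% of all tested genes). DESeq2 called 0 higher and 1 lower, VPS41. VPS41 stayed called without any 1 library. VPS18 was called without shControl replicate 2 or 3 and otherwise had an adjusted p between 0.052 and 0.19, and VPS33A was called without shControl replicate 3 and otherwise had an adjusted p between 0.069 and 0.11. With offsets for effective length, VPS41 was at -0.057 (adjusted p = 0.71 by edgeR), and of the genes named in these further lists GABARAP and BCL2L1 were called. The HOPS subunits VPS11, VPS16 and VPS39 were at 0.012, -0.13 and -0.087 and were not called.

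Of 15 receptors of single organelles, 4 were higher and 2 were lower by edgeR (8.22% and 7.54% of all tested genes). The mitophagy receptors BNIP3, BNIP3L and BCL2L13 were called at 0.20, 0.17 and 0.16, and NCOA4, the receptor of ferritin, at 0.16 (adjusted p = 0.0060, 0.017, 0.026 and 0.0086 by edgeR). RTN3, a receptor of tubular endoplasmic reticulum, was called at -0.12 (adjusted p = 0.026 by edgeR). DESeq2 called 3 of the 15 higher and 1 lower, and did not call BCL2L13 (adjusted p = 0.060). With 1 library left out, the edgeR call was lost for NCOA4 (shSTBD1 replicate 1, adjusted p = 0.056), for BNIP3L (shControl replicate 2 or shSTBD1 replicate 1, 0.077 and 0.11), for BCL2L13 (shControl replicate 2, shSTBD1 replicate 1 or 3, 0.095, 0.14 and 0.077) and for RTN3 (shControl replicate 3 or any shSTBD1 library, from 0.053 to 0.10). Among 10 regulators of the kinase complexes, 0 were higher and 1 was lower by edgeR and by DESeq2, and 1 more, RUBCN, was higher at an unadjusted p under 0.05. The called gene was BCL2L1 (BCL-xL), an apoptosis inhibitor that binds Beclin 1, at 130.7, 125 and 119.9 CPM in shControl and at 100.2, 99.9 and 97.8 CPM in shSTBD1, with -0.34 as its log2 fold change (standard error 0.037, adjusted p = 1.1e-05 by edgeR). Of 7 transcription factors known to act on autophagy genes, 6 were tested and 0 were called by edgeR or DESeq2, while TFEB (higher) and FOXO1 (lower) passed an unadjusted p of 0.05. TFEB was at 5.56, 5.41 and 5.25 CPM in shControl and at 7.05, 6.71 and 6.25 CPM in shSTBD1, a log2 fold change of 0.30 that did not pass (adjusted p = 0.098 by edgeR). FOXO1 was at 18.85, 19.01 and 18.3 CPM in shControl and at 16.95, 15.96 and 16.74 CPM in shSTBD1. Its log2 fold change was -0.18 (adjusted p = 0.078 by edgeR). Of the 6 tested factors, 2 were above 0 and 4 below 0, with a median log2 fold change of -0.11.

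Reads that belong to neighbouring genes could touch some of these values. In GENCODE release 44, exons of another gene overlapped those of 21 of the 38 members, and the sources used here do not state if reads were counted by strand. Among the called members the overlap was 2.09% of the exonic bases of ATG12 (AP3S1), 5.51% of NBR1 (a lncRNA), 4.53% and 1.91% of TAX1BP1 (JAZF1 and TAX1BP1-AS1) and 1.29% of VMP1 (PTRH2), on the opposite strand, beside 0.72% of VMP1 (MIR21) on the same strand. ATG9A shared 38.8% and WDR45 14.4% of its exonic bases with a gene on its own strand. The largest overlaps on the opposite strand were in uncalled members. They were 24.4% of WIPI1 (ARSG), 21.0% of SQSTM1 (MRNIP), 20.8% of ATG14 (FBXO34), 19.2% of ATG101 (a lncRNA) and 18.1% of ATG7 (VGLL4). RSEM's posterior standard deviation was at most 2.35% of the count for any member.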

How the data were processed

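The RNA of HCT116 cells was compared between 3 shControl and 3 shSTBD1 libraries, grouped by their labels. The authors removed low-quality reads, used STAR 2.7.1a to align to Hg38 (gene models of Ensembl release 93), and ran RSEM 1.3.1. They deposited an expected count per gene, not normalized and fractional where reads were shared, and TPM values, which the authors obtained from count and effective length. Totals were 17689097 to 21668274 per library, and counting error is included in the fitted spread. Of 58395 gene IDs, 57754 matched a symbol.

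Counts were rounded, filtered by filterByExpr, scaled by TMM (factors 0.979 to 1.009) and tested with edgeR 4.0.16 (R 4.3.3) by the quasi-likelihood F-test without covariates. P-values were adjusted by Benjamini-Hochberg over 15566 genes. Paralog ratios were compared by exact permutation tests in scipy 1.17.1. The members, lists and tests were chosen with earlier results of these data known. The rule for named genes gave values in every library for members with an adjusted p under 0.05 and for SQSTM1, NBR1, OPTN, CALCOCO2 and TAX1BP1, and named called genes of each further list, at most the 5 with the smallest p. STBD1 was always named. Per-library values of other genes were added after they were seen. Alternatives were DESeq2 1.42.0, other scalings, filters, unrounded counts, offsets for effective length or a trend with gene length, limma 3.58.1 on log2(TPM + 1) and log2(TPM + 0.1), the replicate number as a block, and each library left out. The scripts were tested on simulated data. Positions came from GRCh38 with GENCODE release 44, promoters from RefSeq GRCh38.p14, and the letters of the 7-base site from the study's methods. Replicates are called biological, with no more said of them.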

Additional observations from a re-analysis of the deposited data

How the results depend on the processing

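Of 38 members, 6 were called higher in the edgeR fit. With offsets for effective length 1 was called (ATG12), and with limma on log2(TPM + 1) and on log2(TPM + 0.1) 0 were. In these settings, in this order, 3.28%, 1.88% and 1.86% of all tested genes were called in either direction. Called higher were 1.84%, 1.14% and 1.13%. In limma on log2(TPM + 1), ATG12 had a log2 fold change of 0.23 with an adjusted p of 0.11. With 1 library left out, 4 to 6 members were called higher and 0 to 1 lower, while 8.90% to 16.2% of all tested genes were called. The fewest, ULK1, RB1CC1, VMP1 and ATG12, were called without shSTBD1 replicate 1, and ULK2 was called lower without shControl replicate 1. The median log2 fold change of the members, 0.051, ran from 0.036 to 0.068 with a library left out. STBD1 had a log2 fold change of -0.54 in limma on log2(TPM + 1) and -0.65 in limma on log2(TPM + 0.1), not called in either (adjusted p = 0.065 and 0.067). The other settings gave 5 to 7 members called higher. In them 9.85% to 17.9% of all tested genes were called in either direction and 5.24% to 9.29% higher.

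The replicate numbers did not pair the libraries: deviations of libraries with the same number correlated at 0.071, 0.068 and -0.0084 across genes. With the replicate number as a block, 6 members were called higher and 0 lower (16.6% of all tested genes were called, 8.74% higher). With the replicate block and a gene-length trend, 7 were called higher (16.3% of all tested genes were called, 8.33% higher).

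Members that were not called changed sign in some settings. With offsets for effective length, limma on log2(TPM + 1) and limma on log2(TPM + 0.1), in this order, the log2 fold changes were 0.11, 0.069 and 0.075 for ULK2, 0.21, 0.19 and 0.20 for ATG13, -0.21, -0.19 and -0.22 for UVRAG, and 0.088, 0.070 and 0.074 for AMBRA1. In the same order they were -0.016, -0.028 and -0.032 for ATG2A, -0.083, -0.092 and -0.094 for ATG9A, -0.051, -0.052 and -0.053 for ATG16L1, and -0.050, -0.060 and -0.061 for ATG4B. They were -0.027, -0.043 and -0.049 for ATG4C, -0.041, -0.047 and -0.047 for SQSTM1, 0.11, 0.088 and 0.094 for WDFY3, and -0.00645, -0.016 and -0.017 for STX17. With offsets for a trend with gene length, ATG14 was at 0.022, WDR45 at -0.0086, ATG4B at -0.031, ATG4D at -0.0082 and WDFY3 at 0.0090, and with the replicate block added they were at 0.023, -0.0049, -0.031, -0.0082 and 0.0090. With library size alone ATG14 was at 0.00087. The cause was not tested.

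With a library left out, the log2 fold change crossed 0 for AMBRA1 (-0.12 to 0.026), ATG10 (-0.12 to 0.068), ATG13 (-0.064 to 0.0088), ATG14 (-0.029 to 0.026), ATG16L1 (-8.6e-05 to 0.092), ATG4B (-0.070 to 0.084), ATG4D (-0.0084 to 0.085), ATG9A (-0.0057 to 0.024), OPTN (-0.0024 to 0.11), STX17 (-0.0032 to 0.040), WDR45 (-0.029 to 0.092) and WDR45B (-0.020 to 0.027). Differences in log2 paralog ratio crossed 0 for ULK1 over ULK2 (-0.079 to 0.31), ATG2A over ATG2B (-0.37 to 0.22), ATG4C over ATG4D (-0.29 to 0.028), WIPI1 over WIPI2 (-0.030 to 0.19) and WDR45 over WDR45B (-0.0035 to 0.076).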
